A study of Mus musculus with 4 samples.

Results

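Conventional type 1 dendritic cells (cDC1) were examined in single-cell RNA data of mouse ascites. They were chosen by their counts. A barcode entered the set when it held 800 to 4800 genes and at most 15% mitochondrial UMIs (unique molecular identifiers, each a tag of one captured RNA molecule). It also needed at least 2 UMIs of Clec9a plus Xcr1, no UMI of C1qa, C1qb, Cd79a or Cd3e, and fewer than 3 UMIs of Ccr7, Fscn1 and Ccl22 together. This gave 297 cDC1 of 133849 barcodes. They came as 136 and 112 cells from the siCont libraries 1 and 2, and as 29 and 20 cells from the siFXR1-LNA libraries 1 and 2.

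All 4 libraries were made from ascites of female FVB mice, 6 weeks after injection of Br-Luc cells, a mouse ovarian tumor line that carries p53-/-, brca1-/-, myc and Akt-myr. All mice received repeated doses of an siRNA in the carrier jetPEI, with locked nucleic acid (LNA) bases that slow its breakdown. The siCont group received a control siRNA, and the siFXR1-LNA group an siRNA against Fxr1. Each library pooled ascites of 3 mice, so the 2 libraries of a group stand for 2 pools, and p-values measure the spread between pools only. Red cells had been lysed before capture. The tumor is an injected line in hosts that keep their immune system, and no cell sort is described in the sources used here.

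The libraries held 78179267 to 113606837 UMIs in 17309 to 54665 barcodes, of which 7702 to 16317 passed the limits on genes and mitochondrial UMIs. The median depth of a cDC1 was 5343 and 9472 UMIs in the siCont libraries and 5629 and 8995 UMIs in the siFXR1-LNA libraries. Summed over cells, the group comparisons rested on 776136 and 1086557 UMIs against 181380 and 183994 UMIs. The target did not check the labels. Fxr1 in cDC1 stood at 37.4 and 46.9 UMIs per 1000000 UMIs of the summed cells (CPM) in the siCont libraries and at 88.2 and 65.2 CPM in the siFXR1-LNA libraries. Its fitted log2 change was 0.85 ± 0.34 (SE, n = 2 libraries per group, adjusted p = 0.390, edgeR's quasi-likelihood test), not a decrease, so the groups are given here as the libraries labelled siCont and siFXR1-LNA. Of the cDC1 barcodes, 16, 17, 3 and 6 also occurred as a barcode of another library, and none was a cDC1 in both.

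cDC1 are the dendritic cells that take up dying cells and present their proteins on MHC class I to CD8 T cells, a route called cross-presentation. They depend on the transcription factors Irf8 and Batf3 and on the growth factor receptor Flt3. Clec9a binds actin exposed on dead cells, and Xcr1 is the receptor for Xcl1, a chemokine that CD8 T cells and natural killer cells release. The neighbouring type 2 cells (cDC2) present mainly on MHC class II to CD4 T cells. After activation both types raise Ccr7 and move to lymph nodes, and such mature cells were left out by the rule.

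The cells carried the identity of cDC1 beyond the genes that chose them. Irf8, the factor on which the lineage depends, stood at 1435 and 1733 CPM in the siCont libraries and at 436 and 1342 CPM in the siFXR1-LNA libraries, against 11.9 to 20.7 CPM in cDC2. Naaa, a lysosomal amidase used as a cDC1 marker, stood at 1348 and 1515 CPM against 866 and 1250 CPM. Wdfy4, which cross-presentation requires, stood at 1421 and 1579 CPM against 1119 and 1266 CPM. Itgae, the integrin chain CD103, stood at 442 and 386 CPM against 425 and 538 CPM. The 4 marker genes that the rule did not use were therefore present in every library. Clec9a itself, a rule gene, ranged from 463 to 579 CPM in cDC1 and from 1.52 to 17.0 CPM in all other filtered barcodes. Both Clec9a and Xcr1 were detected in 75.7%, 89.3%, 82.8% and 75% of the cDC1 of the 4 libraries.

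The library siFXR1-LNA 1 stood apart in several identity genes. Irf8 was detected in 65.5% of its 29 cells, and in 97.1%, 97.3% and 95% of the cells of siCont 1, siCont 2 and siFXR1-LNA 2. Cd24a, a surface protein of the lineage, stood at 204 CPM there and at 500 to 545 CPM in the other libraries. Ccr2, a receptor that brings cells from blood into inflamed sites, was detected in 27.6% of its cells and in 75% to 85.7% elsewhere. The 6 cells of that library just inside the threshold of 2 Clec9a plus Xcr1 UMIs had 145 CPM of Irf8, and the 16 barcodes with 1 such UMI, just outside, had 363 CPM. In the other libraries the 22, 10 and 3 cells just inside had 1267, 1667 and 438 CPM of Irf8, and the 19, 24 and 3 barcodes just outside had 934, 782 and 1002 CPM.

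**Figure D1:**
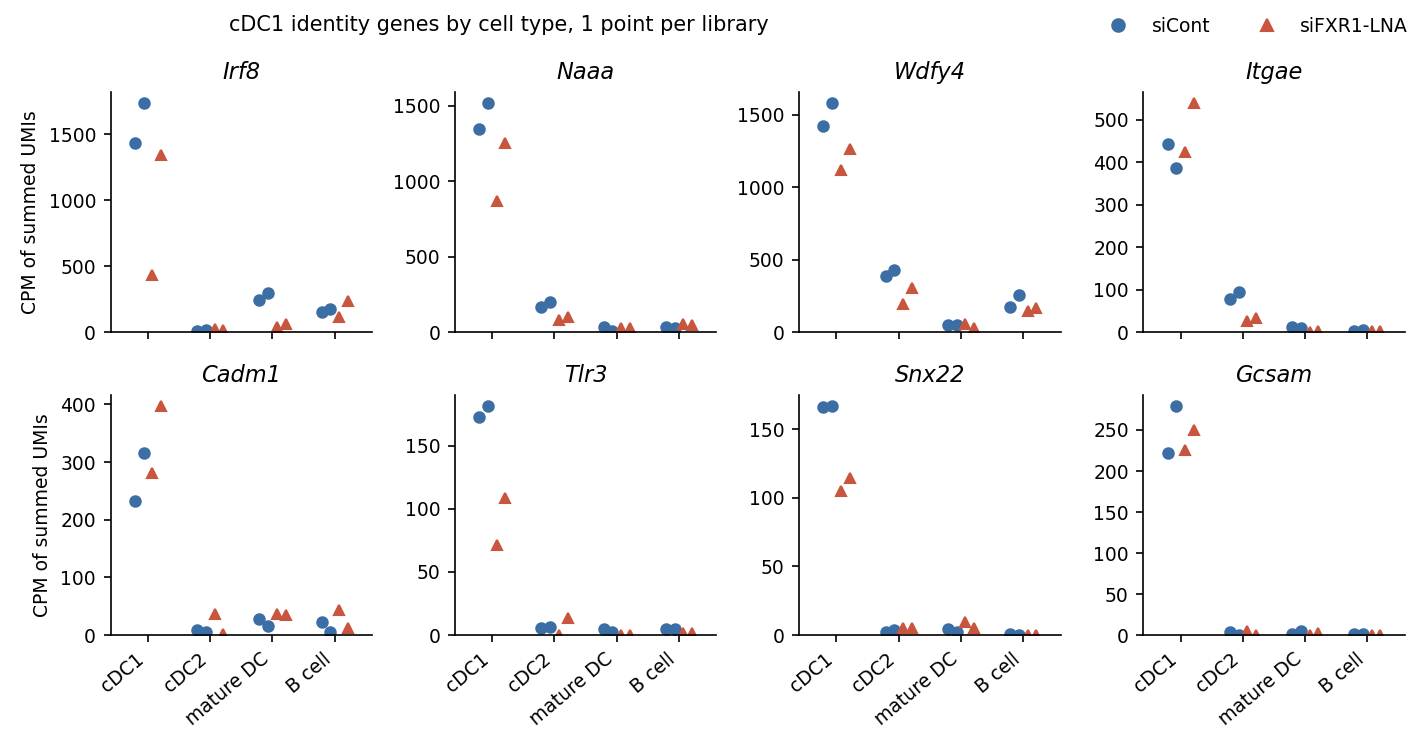
CPM of summed UMIs for 8 identity genes in cDC1, cDC2, mature dendritic cells and B cell barcodes, with 1 point per library (circles siCont, triangles siFXR1-LNA). Each gene is highest in cDC1 in every library, and the siFXR1-LNA 1 point of Irf8 lies at 436 CPM, below the other 3 cDC1 points.

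Genes of other cell types moved with the groups in the UMIs of the cDC1 barcodes. Of 11 macrophage markers, C1qa and C1qb were at 0 by the rule and the others summed to 810 and 842 CPM in the siCont libraries and 1202 and 1109 CPM in the siFXR1-LNA libraries. The 9 neutrophil markers summed to 18.0 and 324 CPM against 419 and 837 CPM. The 6 erythroid markers went the other way, at 71772 and 50691 CPM against 37579 and 13990 CPM, as did the 6 mast cell markers at 731 and 243 CPM against 38.6 and 38.0 CPM. Within the macrophage list Lyz2, a lysozyme, made up most of the sum and was found in 79.3% to 95% of cDC1, and Apoe, a lipid carrier, in 42.9% to 85%. Adgre1, the macrophage antigen F4/80, was at most 27.6 CPM, against 61.1 to 159 CPM in all other barcodes. Within the neutrophil list the alarmin S100a8 was found in 3.68% and 26.8% of cDC1 of the siCont libraries and in 37.9% and 50% of those of the siFXR1-LNA libraries. S100a9, its partner, was found in 4.41% and 33.9% against 27.6% and 45%, and Retnlg in 0.735% and 8.04% against 17.2% and 35%. Ly6g was at most 0.92 CPM and Ltf at 0 in all 4 libraries. B cell markers summed to 27.6 to 103 CPM and T and NK cell markers to 4.60 to 27.2 CPM. The part of free RNA and of doublets in the results below was not tested.

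cDC1 were a smaller part of the filtered barcodes in the siFXR1-LNA libraries. They made up 1.00% of the filtered barcodes in siCont 1 (136 of 13583, exact 95% binomial interval 0.841% to 1.18%) and 1.45% in siCont 2 (112 of 7702, 1.20% to 1.75%). In siFXR1-LNA 1 the share was 0.178% (29 of 16317, 0.119% to 0.255%), and in siFXR1-LNA 2 it was 0.168% (20 of 11889, 0.103% to 0.260%). The groups did not overlap, and the difference was -1.05 percentage points. A 2-sided exact permutation test over the libraries gave p = 0.333, the smallest value that 2 against 2 allows. Intervals here cover counting error only. A share cannot tell fewer cDC1 from more of the other cells.

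Among dendritic cells alone the difference was small. Barcodes chosen in the same way as cDC2 (at least 2 UMIs of Cd209a plus Mgl2) numbered 257 and 246 against 42 and 56, and mature dendritic cells (at least 3 UMIs of Ccr7, Fscn1 and Ccl22) numbered 126 and 127 against 61 and 53. Plasmacytoid dendritic cells numbered 3 or 4 per library. Of all 4 kinds together, cDC1 were 26.0% (22.3% to 30.0%) and 22.9% (19.3% to 26.9%) in the siCont libraries. They were 21.3% (14.8% to 29.2%) and 15.2% (9.51% to 22.4%) in the siFXR1-LNA libraries. The groups did not overlap in their values, but the interval of siFXR1-LNA 1 covered both siCont values (difference -6.22 points, exact permutation p = 0.333). Of cDC1 and cDC2 only, cDC1 were 34.6% and 31.3% against 40.8% and 26.3%, a difference of 0.635 points in the other direction (exact permutation p = 1).

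**Figure D2:**
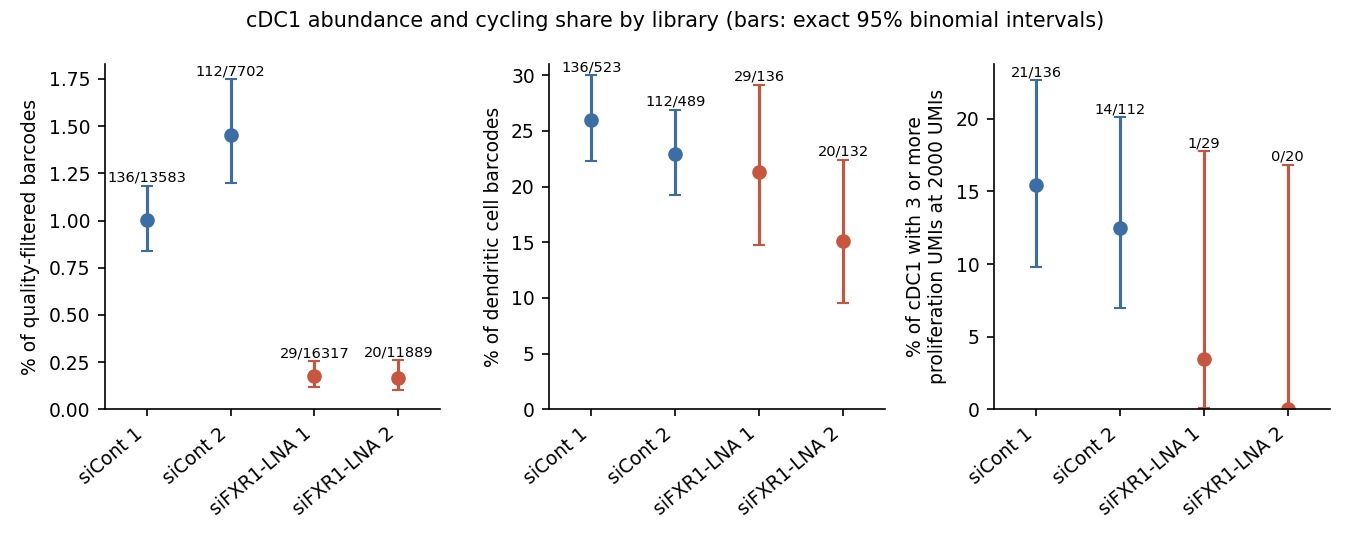
Points give, per library, the cDC1 share of filtered barcodes (left), the cDC1 share of dendritic cell barcodes (middle) and the share of cDC1 with 3 or more proliferation UMIs after thinning to 2000 UMIs (right), with exact 95% binomial intervals and the counts printed above. The siCont shares of filtered barcodes, 1.00% and 1.45%, lie above 0.178% and 0.168%, whereas the dendritic cell shares overlap in their intervals.

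The set also depends on its lineage rule. A further 262, 65, 16 and 42 barcodes with 2 or more UMIs of Clec9a plus Xcr1 were left out because they held a UMI of C1qa, C1qb, Cd79a or Cd3e. That is 65.8%, 36.7%, 35.6% and 67.7% of the barcodes that passed the other conditions. C1qa or C1qb, complement genes of macrophages, were present in 245, 49, 16 and 41 of them, and 105, 33, 9 and 22 held a single such UMI. With up to 2 lineage UMIs allowed, an alternative chosen after the data were seen, the shares of filtered barcodes were 2.13% and 2.05% against 0.257% and 0.412%.

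Cycling cDC1 were seen mainly in the siCont libraries. Each cell was thinned to 2000 UMIs, and a cell was called cycling with 3 or more UMIs of 22 proliferation genes. The share was 15.4% (21 of 136, 9.82% to 22.6%) and 12.5% (14 of 112, 7.01% to 20.1%) in the siCont libraries. It was 3.45% (1 of 29, 0.0873% to 17.8%) in siFXR1-LNA 1 and 0 of 20 in siFXR1-LNA 2, where the interval reaches 16.8%. The groups did not overlap (difference -12.2 points, exact permutation p = 0.333), but the counting intervals did. After thinning, cells with 4 or more proliferation UMIs numbered 14 and 13 in the siCont libraries and 0 in both siFXR1-LNA libraries, and the highest cell held 20, 34, 3 and 2 such UMIs. Without thinning the shares were 49.3% and 46.4% against 31.0% and 40% of cells. In cDC2 the thinned share was 13.8% and 10.3% against 0% and 1.85%, and in mature dendritic cells, where the groups overlapped, 10.7% and 1.69% against 5% and 5.77%. In B cell barcodes it was 14.5% and 3.16% against 4.52% and 4.07%.

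The gene counts behind this were low in the siFXR1-LNA libraries. Top2a, the topoisomerase that untangles replicated DNA, stood at 72.2 and 82.8 CPM in the siCont libraries, and at 5.51 and 0 CPM in the siFXR1-LNA libraries. It fell, with a fitted log2 change of -4.71 ± 0.71 (SE, n = 2 per group, adjusted p = 0.0416 by edgeR's quasi-likelihood test, adjusted after Benjamini and Hochberg). The siFXR1-LNA libraries held 1 Top2a UMI against 146, a ratio of 28.6 with an exact 95% counting interval of 5.06 to 1139. Such counting intervals, here and below, treat UMIs as independent, although 1 cell of siCont 2 held 23 Top2a UMIs. By cell, Top2a was found in 24 of 136 and 14 of 112 cDC1 against 1 of 29 and 0 of 20. Of all 6064 genes tested between the groups, 3 were called lower (0.0495%) and 15 higher (0.247%). No fit that left out 1 library called Top2a (adjusted p = 0.0685 to 0.784, edgeR), and DESeq2 called none of the list. Top2a was the only one of 15 tested proliferation genes that edgeR called. The other 7 of the 22 listed genes had too few UMIs to be tested. Several tested members, Top2a among them, passed that filter through the siCont libraries alone, so their direction is not counted. Summed over all 22, the list stood at 959.9 and 1166 CPM against 281 and 239 CPM in cDC1, and at 897 and 724 CPM against 418 and 431 CPM in all other barcodes. Mki67, a marker of all cycling phases, stood at 60.6 and 84.7 CPM against 5.51 and 10.9 CPM (adjusted p = 0.0566, edgeR's quasi-likelihood test). Birc5, a mitotic regulator, had 72 UMIs in the siCont libraries and 0 in the siFXR1-LNA libraries. Against a floor of 3 UMIs over the group the ratio was 4.71, which counts UMIs and not cells. Birc5 was found in 6.62% and 6.25% of cDC1 of the siCont libraries. For 0 of 29 and 0 of 20 cells the exact 95% intervals reach 11.9% and 16.8%, so neither siFXR1-LNA library alone bounds the Birc5 decrease by cell. By the same floor the UMI ratio was 3.92 for Cenpf, a centromere protein, and 3.27 for Cdk1, the mitotic kinase.

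Both other called decreases were interferon-inducible genes. Ifi27l2a, a gene induced by interferon, stood at 524 and 742 CPM in the siCont libraries and at 60.6 and 59.8 CPM in the siFXR1-LNA libraries. It fell by 3.39 on the log2 scale (SE 0.30, n = 2 per group, edgeR adjusted p = 0.0026). Ly6a, the surface antigen Sca-1, stood at 129 and 174 CPM against 11 and 5.43 CPM and fell by 4.17 (SE 0.50, edgeR adjusted p = 0.0150), from 289 UMIs to 3. Ly6a passed the count filter through the siCont libraries alone. Without siCont 1 and siCont 2 in turn Ifi27l2a had an edgeR adjusted p = 0.325 and an adjusted p = 0.177, and Ly6a lost its call without any 1 of the 4 libraries (adjusted p = 0.0562 to 0.415, edgeR). Both genes were lower in other cells too. Ifi27l2a in cDC2 stood at 2010 and 1955 CPM against 243 and 302 CPM, and in all other filtered barcodes at 1317 and 1601 CPM against 95.7 and 195 CPM. Ly6a in cDC2 stood at 894 and 1324 CPM against 119 and 118 CPM. A Ly6a UMI was found in 16.9% and 32.1% of cDC1 against 6.90% and 5%.

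The wider type I interferon list had a lower sum in the siFXR1-LNA libraries, with no call by edgeR. Of 15 genes tested, 0 were called by edgeR, 11 had an unadjusted p under 0.05, and DESeq2 called Irf7. The median fitted change was -1.21. Members such as Usp18 passed the count filter through the siCont libraries alone, so the direction of the members is not counted. Irf7, the factor that amplifies the interferon response, stood at 180 and 366 CPM against 44.1 and 48.9 CPM (edgeR adjusted p = 0.0545). Isg15, a ubiquitin-like protein induced by interferon, stood at 177 and 189 CPM against 66.2 and 32.6 CPM (edgeR adjusted p = 0.0566). Usp18, which removes Isg15 from proteins, stood at 51.5 and 77.3 CPM against 5.51 and 5.43 CPM. Summed over 22 genes, the list stood at 1708 and 2140 CPM in the siCont and at 849 and 739 CPM in the siFXR1-LNA libraries. In the B cell barcodes the same sum was 1571 and 1714 CPM against 330 and 605 CPM. Of 4 tested interferon-gamma response genes 0 were called by edgeR or DESeq2 (2 with an unadjusted p under 0.05 in edgeR), with a median of -0.64.

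A promoter is shown for Isg15 as an example of the interferon list, though Isg15 itself was not called. The called interferon-inducible genes Ifi27l2a and Ly6a were missing from the promoter set used. Promoters are also shown for Bnip3, a called hypoxia gene, and for Plet1 and Ccl17, the increases that stood above all other barcodes. They are RefSeq sequences of mouse build GRCm38.p6, 250 bases upstream of the first listed start of the gene, written 5′ to 3′ in the direction of the gene. The Isg15 line is chr4:156200819-156201068, minus strand. The Bnip3 line is chr7:138909507-138909756, minus strand. The Plet1 line is chr9:50494275-50494524, plus strand, and the Ccl17 line is chr8:94810203-94810452, plus strand. Capitals mark the interferon element (GAAA, any 2 bases, GAAA) in Isg15 and the hypoxia core (ACGTG or GCGTG) in Bnip3, both searched on either strand.
Isg15: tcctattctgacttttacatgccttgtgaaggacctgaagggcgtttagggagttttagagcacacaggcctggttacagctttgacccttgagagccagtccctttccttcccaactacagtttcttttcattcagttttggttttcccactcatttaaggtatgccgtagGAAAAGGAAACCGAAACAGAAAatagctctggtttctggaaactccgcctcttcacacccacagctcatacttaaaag
Bnip3: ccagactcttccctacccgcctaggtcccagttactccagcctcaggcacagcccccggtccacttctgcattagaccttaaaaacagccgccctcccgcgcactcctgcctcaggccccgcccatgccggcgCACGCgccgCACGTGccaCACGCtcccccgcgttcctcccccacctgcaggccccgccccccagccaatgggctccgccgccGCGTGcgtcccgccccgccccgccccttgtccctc
Plet1: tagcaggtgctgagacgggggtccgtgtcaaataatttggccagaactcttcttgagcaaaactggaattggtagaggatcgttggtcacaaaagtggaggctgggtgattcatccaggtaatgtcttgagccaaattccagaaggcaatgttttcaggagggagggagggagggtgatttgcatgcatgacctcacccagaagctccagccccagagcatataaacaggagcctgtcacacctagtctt
Ccl17: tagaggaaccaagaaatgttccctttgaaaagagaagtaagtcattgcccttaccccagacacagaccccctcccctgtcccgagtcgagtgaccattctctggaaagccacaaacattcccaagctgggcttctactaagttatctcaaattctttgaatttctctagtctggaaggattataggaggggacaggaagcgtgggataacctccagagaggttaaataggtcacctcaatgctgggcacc
Isg15 held 3 overlapping interferon elements, starting 78, 72 and 66 bases before the start. The element was found in 2.98% of 32851 promoters of this length, and in 9 of 17 promoters of the interferon list. The first share counts every listed promoter, the second only the first listed start of each gene, so their units differ. Bnip3 held 5 matches of the hypoxia core, some overlapping, whereas the promoter of Vegfa, not shown, held 0 matches of it and 1 interferon element. That core was found in 38.6% of all promoters and in 16 of 23 promoters of the hypoxia and glycolysis list, with the same difference in units. Plet1 held neither motif, and Ccl17 held 1 hypoxia core, left in lower case. A match is a run of letters and not a measured site.

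Some genes induced by low oxygen rose in the cDC1 of the siFXR1-LNA libraries. Bnip3, which directs mitochondria to autophagy, stood at 18.0 and 20.2 CPM in the siCont libraries and at 93.7 and 97.8 CPM in the siFXR1-LNA libraries, and rose by a log2 change of 2.31 ± 0.35 (SE, n = 2 per group, edgeR adjusted p = 0.0441). Ndrg1, a stress-response gene, stood at 32.2 and 23.9 CPM against 292 and 103 CPM and rose by 2.83 ± 0.44 (adjusted p = 0.0451, edgeR). Vegfa, the growth factor of blood vessels, stood at 7.73 and 0.92 CPM against 138 and 54.3 CPM and rose by 4.57 ± 0.73 (adjusted p = 0.0466, edgeR). These were the 3 called genes of 22 tested, by DESeq2 as by edgeR. Bnip3 lost its call without any 1 library (adjusted p = 0.102 to 0.633, edgeR). Ndrg1 and Vegfa kept theirs only without siFXR1-LNA 2 (adjusted p = 0.0083 and adjusted p = 0.0451, edgeR), and reached an adjusted p = 0.784 and an adjusted p = 0.721 without siCont 2. Bnip3 and Vegfa passed the count filter through the siFXR1-LNA libraries alone, so the direction of the members is not counted. The glycolytic enzymes Aldoa (376 and 399 CPM against 766 and 620 CPM) and Tpi1 (138 and 137 CPM against 259 and 266 CPM) did not overlap but were not called. Ldha, which makes lactate, was at 778 and 842 CPM against 733 and 750 CPM. The list median was 0.67, against 0.00 over all genes. The same 25 genes summed to 4603 and 3685 CPM against 10282 and 9130 CPM in B cell barcodes, and to 6276 and 6653 CPM against 15312 and 16568 CPM in all other barcodes. Bnip3, Ndrg1 and Vegfa in cDC1 of the siFXR1-LNA libraries were below their level in all other barcodes.

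**Figure D3:**
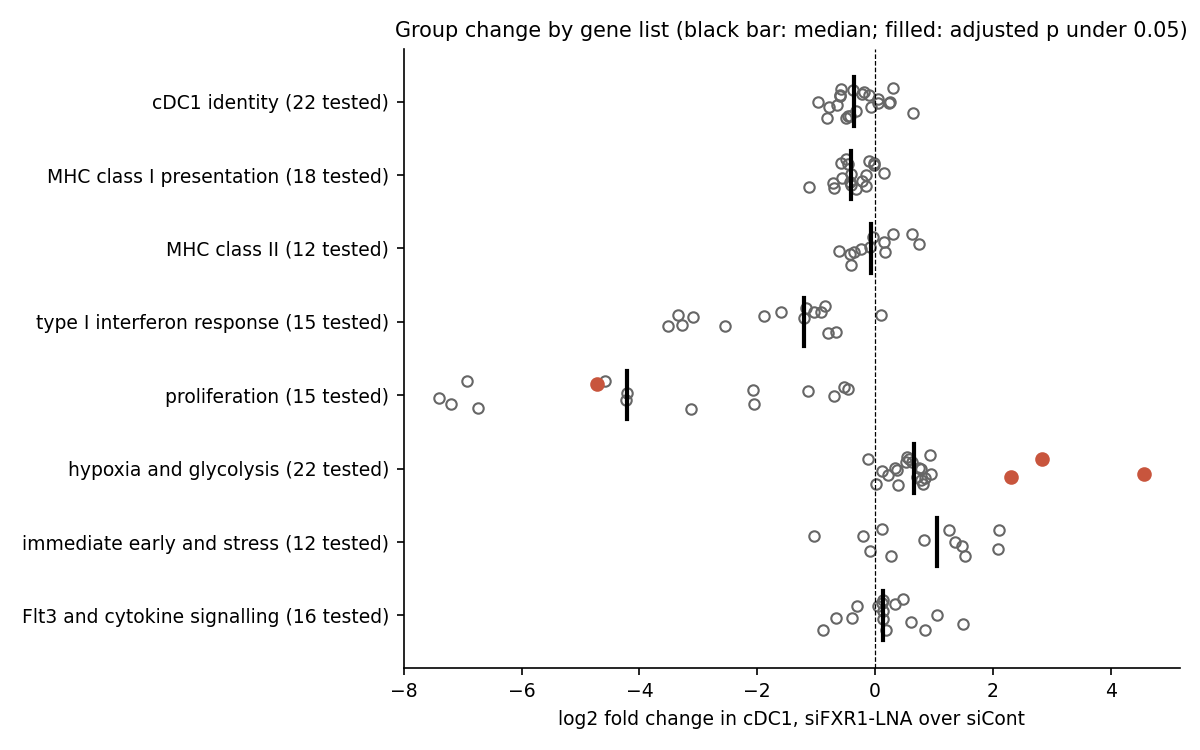
Fitted log2 change between groups in cDC1 for each tested gene of 8 lists (points, filled where the adjusted p was under 0.05), with the list median as a black bar. The median was -1.21 for the interferon list and 0.67 for the hypoxia list. Members of both lists passed the count filter through 1 group alone, so their direction is not counted. The proliferation points lie left of 0, but several of these genes passed the count filter through the siCont libraries alone, and the 4 leftmost proliferation points are genes with no UMI in the siFXR1-LNA libraries, whose fitted value is no bound.

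Of the called increases, Plet1 and Ccl17 alone were at or above their level in all other filtered barcodes in both siFXR1-LNA libraries. Plet1, a lipid-anchored surface protein (chr9:50494525-50505482, plus strand, mm10), stood at 3.87 and 2.76 CPM in the siCont libraries. In the siFXR1-LNA libraries it stood at 149 and 70.7 CPM, against 1.67 and 1.95 CPM in all other barcodes. It rose by 4.99 ± 0.55 on the log2 scale (SE, n = 2 per group, edgeR adjusted p = 0.0122). Plet1 passed the count filter through the siFXR1-LNA libraries alone, so only a rise could be called. In mature dendritic cells Plet1 stood at 0 and 0 CPM against 39.1 and 10.8 CPM, so higher values were not confined to cDC1. A Plet1 UMI was found in 2 of 136 and 3 of 112 cells of the siCont libraries, and in 9 of 29 and 6 of 20 cells of the siFXR1-LNA libraries. These shares were 1.47% and 2.68% against 31.0% and 30.0%. After thinning to 2000 UMIs they were 0.735% and 0% against 24.1% and 10.0%. In B cell barcodes, taken as a type that should lack the gene, Plet1 UMIs were found in 0.309% and 0.207% against 0% and 0%. The B cell barcodes had median depths of 2640, 3176, 2326 and 2463 UMIs in the 4 libraries. The counts were small, with 3 and 3 UMIs against 27 and 13, and 1 cell of each siFXR1-LNA library held 8 of them.

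Ccl17, a chemokine that draws T cells bearing Ccr4 (chr8:94810453-94812036, plus strand, mm10), stood at 5.15 and 0.92 CPM in the siCont libraries and at 55.1 and 147 CPM in the siFXR1-LNA libraries. It rose by 5.12 ± 0.72 (SE, n = 2 per group, edgeR adjusted p = 0.0323), and it too passed the count filter through the siFXR1-LNA libraries alone. A Ccl17 UMI was found in 3 and 1 cells against 7 and 3 cells, or 2.21% and 0.893% against 24.1% and 15% of cells. After thinning the shares were 0% and 0% against 6.90% and 10%, and in B cell barcodes 0.928% and 0.689% against 1.03% and 0% held a Ccl17 UMI. In siFXR1-LNA 2 a single cell held 14 of the 27 UMIs. Cells with both Plet1 and Ccl17 numbered 1, 0, 0 and 2. In mature dendritic cells Ccl17 stood at 251 and 83.5 CPM against 166 and 197 CPM, above cDC1 in every library. Ccl17 is also a marker of mature dendritic cells, and the mature markers Relb (15.5 and 24.8 CPM against 44.1 and 38.0 CPM) and Samsn1 (10.3 and 14.7 CPM against 33.1 and 54.3 CPM) did not overlap between the groups but were not called. Cacnb3, another of them, was at 23.2 and 14.7 CPM against 22.1 and 10.9 CPM, and Nudt17 was at 0 in all 4 libraries. The mature markers, without the rule genes, had 1 call (Ccl17) among 7 tested.

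The other called increases were abundant in the siFXR1-LNA libraries as a whole, and cDC1 were below all other barcodes in at least 1 of them. Saa3, an acute phase protein, stood at 45.1 and 38.7 CPM against 4185 and 2381 CPM in cDC1, and at 559 and 671 CPM against 26738 and 33121 CPM in all other barcodes. It was found in 100% of the cDC1 and in 100% of the B cell barcodes of both siFXR1-LNA libraries. Lcn2, a protein that binds bacterial iron carriers, stood at 0 and 4.60 CPM against 524 and 527 CPM in cDC1, and at 927 and 1425 CPM in the B cell barcodes of the siFXR1-LNA libraries. The metal-binding Mt1 (129 and 139 CPM against 1048 and 511 CPM) and Mt2 (6.44 and 0.92 CPM against 221 and 59.8 CPM) rose as well, with an edgeR adjusted p = 0.0150 and an edgeR adjusted p = 0.0359. Wfdc21 (0 and 1.84 CPM against 55.1 and 141 CPM) had 2 UMIs against 36, a ratio of 91.8 (exact 95% counting interval 23.6 to 787). The remaining called genes fell outside the rule for named genes and are given because all calls are listed. They were Hmox1, which degrades heme (29.6 and 17.5 CPM against 171 and 141 CPM), and Trf, the iron carrier transferrin (151 and 101 CPM against 485 and 429 CPM). Ctsl, a lysosomal protease, stood at 52.8 and 20.2 CPM against 369 and 185 CPM. Arg1, which breaks down arginine, stood at 14.2 and 11 CPM against 777 and 103 CPM, and Olfr1033 at 12.9 and 6.44 CPM against 71.7 and 207 CPM. Lcn2, Mt2, Wfdc21, Arg1 and Olfr1033 also passed the count filter through the siFXR1-LNA libraries alone.

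The number of calls changed when a library was left out. A group is then 1 library, assumed to vary like the 2 of the other group, so these p-values say little of stability. Without siCont 1 the edgeR test called 0 of 3547 genes (186 at an unadjusted p under 0.05), and without siCont 2 it called 0 of 3580 (199). Without siFXR1-LNA 1 it called 17, of which 7 were among the 18, and without siFXR1-LNA 2 it called 40, of which 12 were. Fitted changes moved little for some genes and more for others. Without siCont 1 and siCont 2 in turn, Ifi27l2a gave -3.64 and -3.13 and Bnip3 2.21 and 2.37. In the same fits Lcn2 gave 6.74 and 10.6, and Vegfa 6.33 and 3.56. Plet1 gave log2 changes of 5.16 and 4.70 without siCont 1 and siCont 2. It gave 4.39 without siFXR1-LNA 1 (edgeR adjusted p = 0.200). Ccl17 gave 6.41 and 4.20 without siCont 1 and siCont 2 (edgeR adjusted p = 0.633 and adjusted p = 0.714), and 4.20 without siFXR1-LNA 2 (edgeR adjusted p = 0.193). DESeq2 called 39 genes, 17 of them shared.

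**Figure D4:**
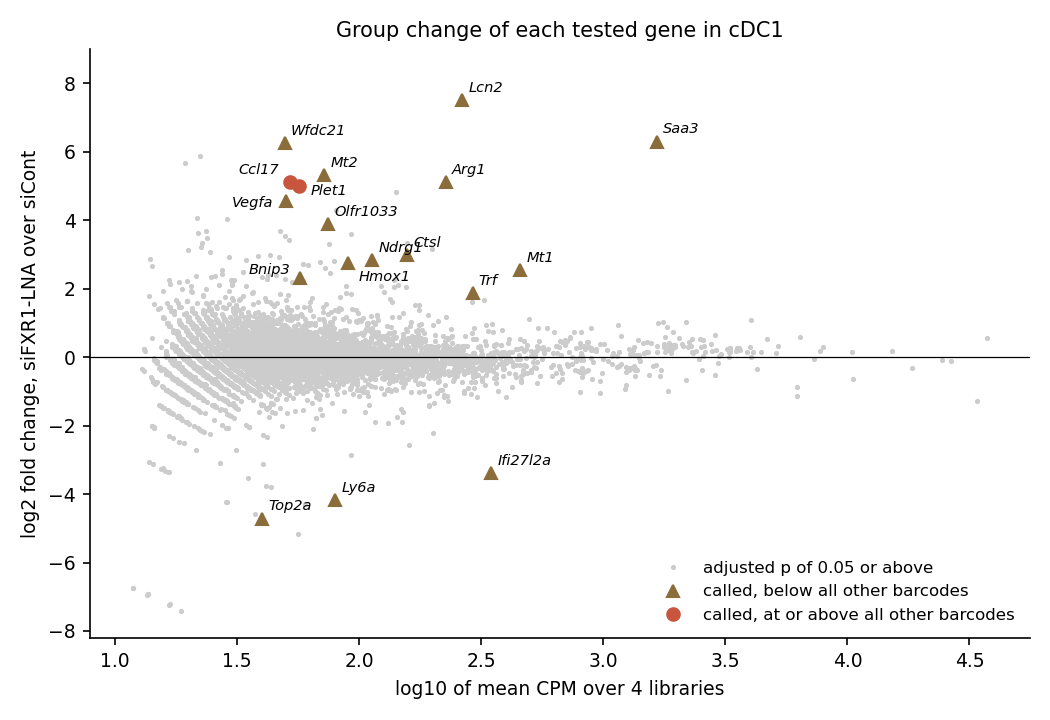
Fitted log2 change between groups against log10 of the mean CPM over the 4 libraries for all 6064 genes tested in cDC1. The 18 called genes are named, circles for Plet1 and Ccl17, at or above all other barcodes in both libraries of the higher group, and triangles for the 16 that were below them in at least 1.

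The machinery that cDC1 use to present antigen was not called as changed. Of 18 MHC class I presentation genes tested, edgeR and DESeq2 called 0, and 5 had an unadjusted p under 0.05 in edgeR, all lower. Of the 18, 17 had a negative change and 10 did not overlap downward, where 22.9% of all genes did so, with a median of -0.40. Psmb10, an immunoproteasome subunit, stood at 162 and 138 CPM against 60.6 and 76.1 CPM. Psmb8, a further subunit, stood at 1011 and 960 CPM against 507 and 804 CPM. The class I heavy chains H2-K1 (1105 and 1079 CPM against 899 and 1114 CPM) and H2-D1 (1721 and 1850 CPM against 1196 and 1832 CPM) overlapped between groups. The peptide transporter Tap1 stood at 265 and 260 CPM against 187 and 283 CPM, and overlapped as well.

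MHC class II genes were high in both groups. H2-Aa stood at 8885 and 11048 CPM against 9929 and 11990 CPM, and Cd74, the invariant chain, at 22861 and 27608 CPM against 18988 and 28082 CPM. Of 12 class II genes 0 were called by edgeR or DESeq2 (2 at an unadjusted p under 0.05 in edgeR), with a median of -0.07. Ctss, the protease that trims the invariant chain, stood at 408 and 535 CPM against 910 and 668 CPM without overlap. Of 13 cross-presentation and uptake genes tested, 0 were called by edgeR or DESeq2 (2 at an unadjusted p under 0.05 in edgeR), with a median of 0.13.

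The identity list held no call. Of 22 genes tested 0 were called by edgeR or DESeq2 (4 at an unadjusted p under 0.05 in edgeR), 12 did not overlap downward, where 22.9% of all genes did so, and the median was -0.35. Batf3, which stabilises the lineage, stood at 231 and 232 CPM against 143 and 125 CPM, and Tlr3, the sensor of double-stranded RNA, at 173 and 181 CPM against 71.7 and 109 CPM. Flt3 was at 295 and 335 CPM against 325 and 321 CPM, and Btla, an inhibitory receptor, at 387 and 361 CPM against 353 and 413 CPM. Cadm1, an adhesion molecule of the lineage, was at 233 and 316 CPM against 281 and 397 CPM. Both latter genes overlapped between the groups.

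Cytokines and signals to T cells were sparse. Il12b, which encodes the cytokine subunit that mature cDC1 are known for, was at 0 UMIs in all 4 libraries, as were Il12a and Il6. A count of 0 allows up to 3 UMIs per library. The rule had left out mature cells. Barcodes that met the Clec9a plus Xcr1 limit but held 5 or more UMIs of Ccr7, Fscn1 and Ccl22 did carry Il12b. It stood there at 1225 CPM in siCont 1 (5 barcodes), 0 CPM in siCont 2 (3 barcodes) and 1096 CPM in siFXR1-LNA 2 (1 barcode). Cd40 stood at 235, 189 and 183 CPM in the same barcodes. Only 7 of 18 genes of the list could be tested, and Ccl17 was the 1 called by edgeR. DESeq2 called Il1b as well. Il1b, the inflammatory cytokine, stood at 9.02 and 17.5 CPM against 215 and 59.8 CPM (edgeR adjusted p = 0.0538), and Cxcl16, the ligand of Cxcr6, at 77.3 and 58.9 CPM against 165 and 147 CPM. Both did not overlap. Ccl3, a chemokine of inflammatory cells, had 0 UMIs in the siCont libraries and 9 in the siFXR1-LNA libraries, 15.3-fold above a floor of 3 UMIs over the group. In B cell barcodes 0.619% and 0.207% held a Ccl3 UMI against 4.48% and 7.66%. In cDC2 the shares were 0.389% and 0% against 7.14% and 7.14%. Of 9 tested costimulation and checkpoint genes 0 were called by edgeR or DESeq2 (2 at an unadjusted p under 0.05 in edgeR). Cd86, a ligand of Cd28, stood at 126 and 138 CPM against 210 and 163 CPM. Cd83 stood at 46.4 and 21.2 CPM against 110 and 70.7 CPM, and Cd40 was at most 10.9 CPM.

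Of 10 homing genes tested, 0 were called by edgeR or DESeq2 (4 at an unadjusted p under 0.05 in edgeR), 6 did not overlap downward, where 22.9% of all genes did so, and the median was -0.62. Cxcr3, the receptor of interferon-induced chemokines, stood at 121 and 146 CPM against 55.1 and 87.0 CPM. Itgb2, the shared chain of leukocyte integrins, stood at 392 and 397 CPM against 198 and 283 CPM. Ccr2 stood at 403 and 442 CPM against 82.7 and 293 CPM, the lowest value again being siFXR1-LNA 1.

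Several further lists held 0 calls by edgeR or DESeq2, with 4 sterol and lipid, 7 immediate early, 4 apoptosis, 2 respiratory chain and 3 cytokine signalling genes at an unadjusted p under 0.05 in edgeR. Fdps, an enzyme of the mevalonate route, stood at 88.9 and 121 CPM against 22.1 and 27.2 CPM (edgeR adjusted p = 0.0697). In that lipid and sterol list 8 of 13 tested genes did not overlap downward, where 22.9% of all genes did so, with a median of -0.64. Immediate early genes had a median of 1.04 over 12 tested genes, and 7 did not overlap upward, where 21.6% of all genes did so. How many members of both lists passed the count filter through 1 group alone was not counted, so no direction is read from them. Dusp1, a phosphatase that switches off MAP kinases, stood at 19.3 and 85.6 CPM against 325 and 147 CPM. Apoptosis genes had a median of 0.66 over 12, and Bcl2l11, a death-promoting protein, stood at 15.5 and 22.1 CPM against 154 and 32.6 CPM. The respiratory chain list had a median of -0.25 over 16 genes, and the Flt3 and cytokine signalling list 0.14 over 16. Of 8 tested sensors of microbes 0 were called by either tool (1 at an unadjusted p under 0.05 in edgeR), with a median of 0.13, and of 8 heat shock genes 0 (0 at an unadjusted p under 0.05), with a median of -0.20.

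Set beside cDC2, cDC1 differed in 1299 of 6375 genes by edgeR's quasi-likelihood test with the library as a block, 630 higher (9.88%) and 669 lower (10.5%). Without siCont 1 and siCont 2 in turn the test called 587 and 514 genes. Both sets were chosen on genes in the same counts, Clec9a and Xcr1 for the one and Cd209a and Mgl2 for the other, so the comparison describes the sets and the rule genes are left out. Of the identity list, 21 of 22 genes were higher in cDC1 and Itgax, the general dendritic cell integrin, was lower. The log2 difference was 6.61 ± 0.22 for Irf8, 3.16 ± 0.15 for Naaa, 2.02 ± 0.13 for Wdfy4 and 2.63 ± 0.24 for Itgae (SE, 4 libraries). All 7 tested cDC2 markers were lower, among them Sirpa, a receptor for Cd47, at 0 to 27.6 CPM against 127 to 228 CPM. In both lists, members such as Gcsam and Sirpa passed the count filter only through the type where they were high. Their direction was then fixed beforehand, so the counts are no separate support for the identity of the sets.

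Beyond the lists, the largest differences lay in genes almost silent in cDC2. P3h2, a collagen prolyl hydroxylase, stood at 76.0, 82.8, 105 and 168 CPM in cDC1, and had 1 UMI in all cDC2 against 199, a ratio of 347 (exact 95% counting interval 61.6 to 13788). Gcsam, a signalling adaptor, stood at 222 to 279 CPM against 0 to 5.17 CPM, and Clnk, an adaptor of immune receptors, at 66.2 to 130 CPM against 0 to 5.17 CPM. Gpr141b (83.7 to 185 CPM), Gramd2 (54.3 to 69.0 CPM), Fzd1, a Wnt receptor (38.6 to 48.9 CPM), Itga1, a collagen-binding integrin (19.3 to 37.7 CPM), and Ttc39a (26.7 to 81.5 CPM) had at most 3 UMIs each in cDC2. Snx22 stood at 105 to 167 CPM against 2.39 to 5.25 CPM. Cxcr3 and Cadm1 had log2 differences of 5.24 ± 0.29 and 5.23 ± 0.32. Cd36, a scavenger receptor, was higher in cDC1 (81.5 to 112 CPM against 3.89 to 7.96 CPM), though macrophage-rich other barcodes held 51.5 to 150 CPM. Gpr65, an acid-sensing receptor, and Lrrc1 were also higher in cDC1 than in cDC2, with 1 siFXR1-LNA library each in which all other barcodes held more.

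Lectins and paired receptors marked the other side. Clec4n had 2 UMIs in cDC1 against 486 in cDC2, and Cd209c stood at 0 to 4.60 CPM against 82.8 to 387 CPM. Clec10a, a galactose-binding lectin, stood at 6.44 to 21.7 CPM against 207 to 512 CPM. Cdh1, the adhesion molecule E-cadherin, had 1 UMI in cDC1 against 161. Ffar2, a receptor of short fatty acids, Sh2d1b1 and Nxpe5 had 1 to 3 UMIs each in cDC1. Sirpb1a, Pilrb1, Pilrb2, Pilra, Ms4a4c, Pltp and the mannose receptor Mrc1 were lower in cDC1 too, with log2 differences of -4.51 to -6.21. Pilrb1 and Pilrb2, like other members of such families, share sequence with near copies, and their split is uncertain.

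The functional lists were split between the types. Over all genes 9.88% were called higher in cDC1 and 10.5% lower, against which these counts are to be read. Of 18 class I presentation genes 7 were higher in cDC1, among them Psmb9 (807 and 687 CPM in the siCont libraries against 356 and 385 CPM) and the transporter Tap2, and B2m was lower. Of 12 class II genes 2 were higher and 5 lower, with H2-DMb2 at 59.8 to 149 CPM against 321 to 608 CPM. Of 15 cross-presentation genes 7 were higher and 4 lower. Rab43, a vesicle regulator, stood at 342 to 546 CPM against 118 to 133 CPM, while Cybb, the oxidase of the phagosome, stood at 12 to 33.1 CPM against 243 to 278 CPM. Among sensors, Tlr3 and Tlr11, which binds microbial profilin, were higher, and Ddx58, a sensor of viral RNA, was lower.

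Of 19 tested interferon-stimulated genes, 14 were called lower in cDC1 and 0 higher, with a median of -1.22 against -0.02 over all genes. Members such as Ifit3 and Rtp4 passed the count filter through cDC2 alone, so these counts are no separate support for a direction. Summed over 22 genes, the list stood at 1708 and 2140 CPM in cDC1 against 4036 and 4944 CPM in cDC2 of the siCont libraries, and at 849 and 739 CPM against 621 and 1029 CPM in the siFXR1-LNA libraries. Isg15 stood at 177 and 189 CPM in cDC1 against 608 and 681 CPM in cDC2 of the siCont libraries, and at 66.2 and 32.6 CPM against 25.9 and 86.6 CPM in the siFXR1-LNA libraries. Ifit3 stood at 3.87 and 3.68 CPM against 154 and 214 CPM in the siCont libraries, and at 11 and 0 CPM against 20.7 and 21.0 CPM. Rtp4 stood at 0 to 8.28 CPM in cDC1 of all libraries against 82.8 to 273 CPM. The test of whether the group change differed between the types called 0 of the 19 by edgeR or DESeq2, with 10 at an unadjusted p under 0.05 in edgeR. Of 22 hypoxia and glycolysis genes 1 was higher and 8 lower in cDC1, with Eno1, a glycolytic enzyme, at 328 to 500 CPM against 818 to 977 CPM.

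The change between groups differed between cDC1 and cDC2 in 26 of 6375 genes, tested as the interaction of cell type and group. In 23 (0.361%) the cDC1 change was the more positive, and in 3 (0.0471%) the more negative. With DESeq2's size factors 10 were called, all positive. Without siFXR1-LNA 1 the test called 12, and without siFXR1-LNA 2 it called 44. Plet1 differed most, by 6.45 ± 0.57 on the log2 scale (SE, n = 2 per group, edgeR adjusted p = 8.69e-06). Its level in cDC2 was 73.2 and 61.2 CPM in the siCont libraries and 31.0 and 18.4 CPM in the siFXR1-LNA libraries, the opposite direction to cDC1. Ccl17 differed by 5.68 ± 0.77 (edgeR adjusted p = 0.00202), with cDC2 at 54.1 and 28.7 CPM against 46.6 and 21.0 CPM. Plet1 stayed past the threshold in all 10 alternatives that tested it. Ccl17 did so in 9 of 10, the exception being without siFXR1-LNA 2 (4.07, edgeR adjusted p = 0.0557).

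**Figure D5:**
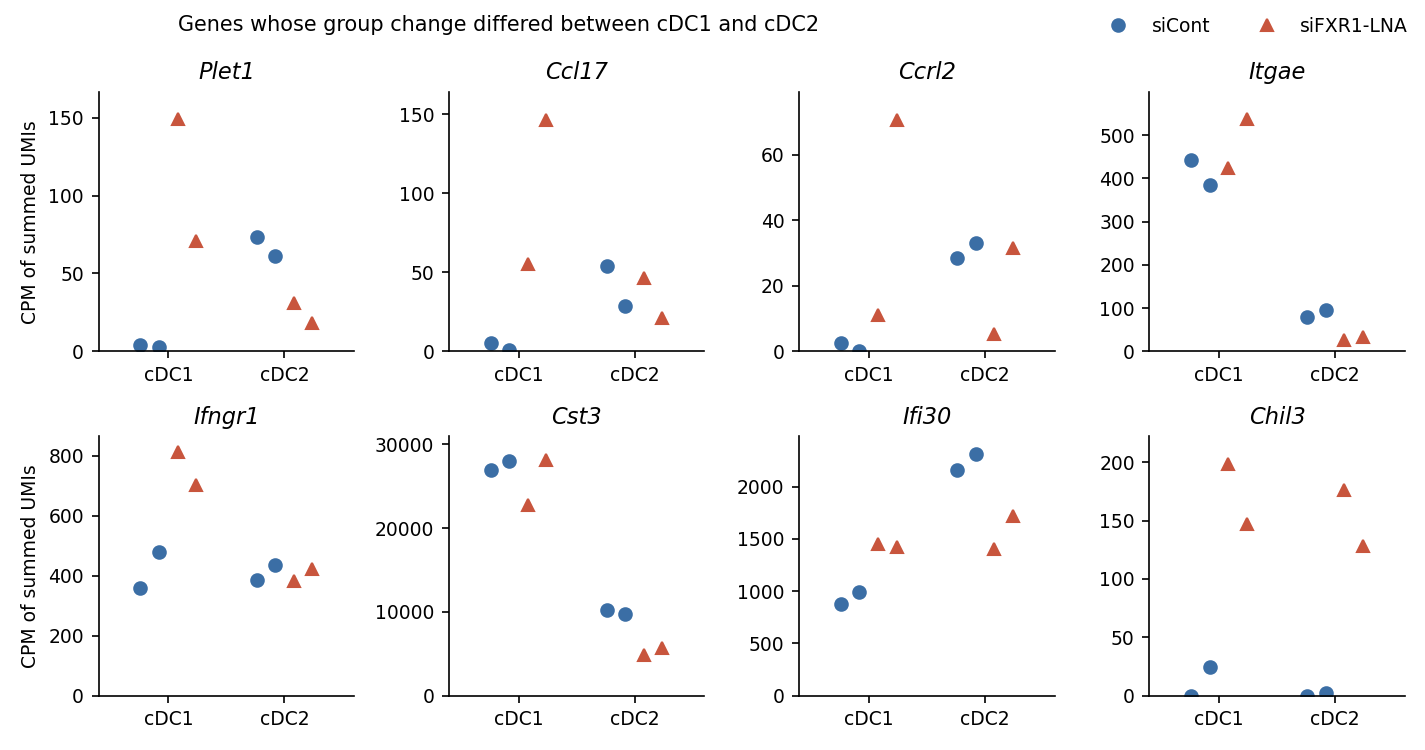
CPM of summed UMIs in cDC1 and cDC2 for 8 genes whose change between groups differed between the types, with 1 point per library (circles siCont, triangles siFXR1-LNA). Plet1 is near 0 in cDC1 of the siCont libraries and 149 and 70.7 CPM in those of the siFXR1-LNA libraries, while in cDC2 the siFXR1-LNA points lie below the siCont points.

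In a further set of these genes the siFXR1-LNA values of cDC2 lay below the siCont values, and those of cDC1 did not. Plac8, a small cysteine-rich protein, stood at 474 and 746 CPM against 1114 and 446 CPM in cDC1, and at 945 and 1214 CPM against 145 and 137 CPM in cDC2 (difference 3.19 ± 0.26, edgeR adjusted p = 6.28e-06). It stayed past the threshold in all 11 alternatives. Ifi30, the thiol reductase of the antigen-processing compartment, stood at 877 and 995 CPM against 1450 and 1419 CPM in cDC1, and at 2161 and 2309 CPM against 1402 and 1717 CPM in cDC2 (1.19 ± 0.16, edgeR adjusted p = 0.00202), and also passed in all 11. Itgae stood at 78.8 and 95.2 CPM against 25.9 and 34.1 CPM in cDC2, below cDC1 in every library (1.83 ± 0.36, edgeR adjusted p = 0.0345). Cst3, the protease inhibitor cystatin C that dendritic cells make in quantity, stood at 26884 and 28047 CPM against 22726 and 28175 CPM in cDC1 and at 10231 and 9766 CPM against 4884 and 5678 CPM in cDC2 (0.86 ± 0.16, edgeR adjusted p = 0.0295).

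Other genes had higher values in cDC1 of the siFXR1-LNA libraries, with no call between the groups in cDC1 itself. Ifngr1, the ligand-binding chain of the interferon-gamma receptor, stood at 359 and 479 CPM against 810 and 701 CPM in cDC1, and at 387 and 434 CPM against 383 and 423 CPM in cDC2 (0.91 ± 0.19, edgeR adjusted p = 0.0458). This interaction was past the threshold in 3 of 11 alternatives. The change of Ifngr1 between groups in cDC1 alone was 0.85 on the log2 scale and not called (edgeR adjusted p = 0.140). Eva1b stood at 11.6 and 6.44 CPM against 49.6 and 87.0 CPM in cDC1 and at 67.1 to 78.8 CPM in cDC2. Its cDC1 values rest on 9 and 7 UMIs against 9 and 16 UMIs. Ccrl2, a chemerin-binding receptor, rested on few cells, since 1 cell of siFXR1-LNA 2 held 10 of its 13 UMIs there. The 4 hemoglobin genes among the 26 stood higher in all other barcodes than in cDC1 in every library. Of the 3 negative genes, Txn1, the redox protein thioredoxin, stood at 540 and 594 CPM against 358 and 348 CPM in cDC1 and at 189 and 187 CPM against 259 and 255 CPM in cDC2 (-1.08 ± 0.22, edgeR adjusted p = 0.0345).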

How the data were processed

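Ascites cells of 4 libraries were captured by droplet 3' RNA sequencing. The deposited values were whole UMI counts per gene and barcode, made by the authors with Cell Ranger 7.0.0 and build mm10 per the processing notes. They had not been normalized. The study left a siFXR1-LNA library out of its own analysis for low cell numbers without saying which. All 4 libraries were used here, so the siFXR1-LNA values may include it, and values without each library are given. No doublet caller was run and no removal of free RNA was applied.

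Groups and replicate numbers came from the sample titles. Raw UMIs were summed per library and cell set and tested with edgeR 4.0.16 in R 4.3.3 (TMM scaling, filterByExpr, quasi-likelihood, threshold 0.05 after adjustment over all genes tested). cDC1 were tested between groups, against cDC2 with the library as a block, and for the interaction. DESeq2 1.42.0, its size factors, no filter, stricter cell limits, no hemoglobin genes, a replicate block and leaving out each library were alternatives. The steps were tested on simulated data. There the group test recovered 19.2% of log2 changes of 1 and 71.8% of log2 changes of 2. The interaction test recovered 14.3% and 59.2%. A gene or list without a call is therefore not shown to be unchanged. Shares used exact binomial intervals and exact permutation tests from scipy 1.17.1.

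Text genes were the list members and, per test, the 12 largest called rises and falls at or above all other barcodes and the 4 largest below. Hmox1, Trf, Ctsl, Mt1, Arg1 and Olfr1033 fell outside this rule and were named after their values were seen. The members and lists were chosen with earlier results of these data known. Genes with near copies (hemoglobins, H2-Q7, Bcl2a1b, Ifitm2, Ifitm3, Pilrb1, Pilrb2, Cd209c) have uncertain counts.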

Additional observations from a re-analysis of the deposited data

Results flagged for a closer look

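The group change differed between cDC1 and cDC2 in 26 genes, by the interaction term of edgeR. As cDC1 change minus cDC2 change on the log2 scale, Plet1 gave 6.45, Ccrl2 5.89, Ccl17 5.68, Capg 3.51, Plac8 3.19 and Eva1b 2.98. Ifi211 gave 2.64, H2-Q7 2.42, Itgae 1.83, Bcl2a1b 1.72 and Dennd4a 1.69. Lgals3 gave 1.19, Ifi30 1.19, Syngr2 1.17, Ifitm3 1.05, Ly6e 0.99, Ifngr1 0.91, Ifitm2 0.89 and Cst3 0.86. The negative genes were Chil3 with -3.25, Fnip2 with -2.34 and Txn1 with -1.08.

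Plet1 was above its siCont level in both siFXR1-LNA libraries, and Ccl17 in siFXR1-LNA 2, also in barcodes that the cDC1 comparison did not use, those with Clec9a or Xcr1 UMIs that were left out for a lineage gene. In these barcodes Plet1 stood at 4.57 and 4.49 CPM in the siCont libraries and at 14.7 and 48.2 CPM in the siFXR1-LNA libraries, with a mean of 31.4 CPM in the latter. Ccl17 stood at 2.85 and 1.5 CPM against 0 and 9.64 CPM, with a mean of 4.82 CPM in the latter. These levels rest on 8 and 3 Plet1 UMIs against 2 and 20, and on 5 and 1 Ccl17 UMIs against 0 and 4. The barcodes come from the same 4 libraries, and these differences were not tested.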

How the results depend on the processing

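The difference in the cDC1 share of filtered barcodes (main -1.05 points) was -1.51 with at least 1200 genes per cell, -1.68 over barcodes under 10% hemoglobin UMIs, -0.323 over all barcodes and -1.75 with up to 2 lineage UMIs, an alternative chosen after seeing the data. Leaving out 1 library gave -0.828 to -1.28. Among cDC1 and cDC2 only, the share of dendritic cells reversed to 0.635, and leaving out 1 library gave -3.13 to -9.30. The cycling difference was -7.23 when thinned to 1000 UMIs, -18.3 with at least 2 UMIs and -8.30 with at least 5, and leaving out 1 library gave -10.5 to -14.0.

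The 18 genes called between groups became 39 with DESeq2, 281 with no filter, 34 with at least 1200 genes, 33 with at least 3 Clec9a plus Xcr1 UMIs, 44 without hemoglobin genes, 50 with up to 2 lineage UMIs and 32 without the 10% of cells richest in other-lineage markers. Leaving out 1 library gave 0 to 40. With the replicate number as a block 171 were called, all 18 among them. Same-numbered deviations correlated at 0.101 over 2 pairs, and no label ties same-numbered libraries to a shared batch or day. The 1299 genes between cDC1 and cDC2 became 714 with DESeq2, and 514 to 1628 without 1 library. The 26 interaction genes became 10 with DESeq2 size factors and 10 with DESeq2, all positive against 23 of 26, and 71 with no filter, 14 with at least 1200 genes, 6 with at least 3 Clec9a plus Xcr1 UMIs, 8 without hemoglobin genes, 48 with up to 2 lineage UMIs and 12 to 44 without 1 library. The difference for Chil3 went from -3.25 to 0.23 without siCont replicate 2, and was -3.33 without siCont replicate 1. The cause of these shifts was not tested.

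Depth limits the siFXR1-LNA values, which rest on 29 and 20 cells and on 181380 and 183994 UMIs. With 2 pools a group no share can reach a permutation p under 0.333.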
